A study of Canis lupus familiaris with 15 samples.

Results

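The genes described here are 35 of the 23630 genes counted in the canine corpus luteum (CL), and they carry symbols of the cell cycle and mitosis families. They were taken from the study's own lists of genes that differed in 1 of 4 contrasts of CL groups, which give a dog symbol to 2970 of their 3261 identifiers. A gene was a member if that symbol began with the letters of a cell cycle family (the CDC, CDK, D-, E-, F- and B-type cyclin, CENP, KIF, MCM, BUB, AURK, PLK, NCAP, TOP2A, MKI67, ESPL, SPC and NUF families), with KIF5C set aside. Membership therefore rested on measured differences between these same dogs. For “mid-gestation over antigestagen” the study's list also held genes that passed its p-value limit of 0.01 but not its limit after adjustment. By role, 15 members act in DNA replication, mitosis or cytokinesis, 6 set the passage through G1 or respond to stress, 7 are kinesins of other functions, and 7 are other genes matched by their symbols. Of these 7, CDK14 and CDK15 are relatives of the cyclin-dependent kinases, and 5 share no more than first letters with a cell cycle family.

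The study compared the CL of 15 dogs aged 2 to 8 years, with 1 RNA-Seq library of whole CL tissue per dog to follow how CL function is kept up and ends in pregnant and non-pregnant dogs, and what changes when the action of progesterone (P4) is blocked. The 5 mid-gestation dogs were pregnant and untreated on days 35 to 40. The 5 antigestagen dogs were pregnant and received aglepristone, which blocks the P4 receptor, at 10 mg/kg in 2 applications 24 h apart between days 40 and 45, with the CL collected 24 h after the last application. The 3 luteolysis dogs were pregnant and at prepartum luteolysis, recognised from P4 in peripheral blood, which was sampled every 6 h from day 58 until 3 measurements in a row lay below 2 to 3 ng/ml, and the 2 luteal regression dogs were non-pregnant, on day 65. Treatment and a later stage of gestation went together in the antigestagen group and cannot be told apart, and the third luteal regression dog of the study was not analysed here.

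In a dividing cell, D-type cyclins with CDK4 drive the passage through G1, and CDK inhibitors such as p21 hold it back. DNA is then copied from licensed origins, chromosomes are condensed and attached to the spindle through centromere and kinetochore proteins, and a checkpoint keeps the anaphase-promoting complex silent until every chromosome is attached. In the CL, cell division is known mostly from its formation, when vessels grow in and endothelial cells multiply, whereas luteal cells are differentiated cells that rarely divide.

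Between 8558743 and 26284315 reads were counted per library (median 18313707). Expression is given as CPM, the count relative to the library size after TMM scaling, which serves to compare dogs for 1 gene but not levels between genes, since no gene lengths were used. A log2 ratio sets the group named first over the other, and its standard error (SE) comes from edgeR. Differentially expressed genes (DEG) passed both limits of the study, 0.01 for the p-value and 0.1 after adjustment, in edgeR's quasi-likelihood test. Luteolysis dog 1 stood apart from luteolysis dogs 2 and 3 in several members outside the mitosis group, for example in CDCP1, with 1.20 CPM against 74.6 and 75.9 CPM, so that log2 ratios of members with this group are also given without it. Mid-gestation dog 1 is given the group number of the antigestagen dogs in 1 of its labels, while its title and its condition read mid-gestation, which was followed.

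Because each member was chosen by a difference between the dogs of 2 groups, it is tested here solely in the contrast of the other 2 groups, and its values and calls in all other contrasts are a description with no p-value. The 11 members on 2 or more lists were tested in the unused contrast of each, which then shares a group with their other listing. All 35 members passed the minimum mean count of 10. As a description of the contrasts that the lists were made from, the number of DEG among all 35 members and the share of DEG among all genes tested were 6 and 5.11% for “luteal regression over luteolysis”, 10 and 8.16% for “mid-gestation over luteolysis”, 0 and 0% for “mid-gestation over antigestagen” (with 980 genes under 0.05 before adjustment, while DESeq2 called 87 genes, 2 members among them), and 7 and 4.75% for “luteolysis over antigestagen”. Since the lists fix these counts, nothing is read from them. Without luteolysis dog 1 the 3 counts that involve luteolysis were 12, 14 and 15, and without luteolysis dog 3 they were 0, 0 and 0.

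The 15 mitosis and replication members had their lowest mean level after antigestagen, each of the 15. The median log2 ratio of the 15 members was 1.03 for “mid-gestation over antigestagen”, 0.89 for “luteolysis over antigestagen” and 1.03 for “luteal regression over antigestagen”, with 15 of 15 members above 0 in each, where the median of all genes was between -0.02 and 0.02. These 3 contrasts share the antigestagen dogs, and 13 of the 15 members were listed for “mid-gestation over antigestagen” and 5 for “luteolysis over antigestagen”, 3 of them for both, so that the low antigestagen level is what chose them and is given without a test. Among mid-gestation, luteolysis and luteal regression, the median log2 ratios of the 15 members were -0.11 for “luteal regression over mid-gestation”, 0.08 for “luteal regression over luteolysis” and 0.13 for “mid-gestation over luteolysis”. Single dogs decided which side of 0 these medians fell on. The first was -0.38 (1 of 15 members above 0) without luteal regression dog 2, 0.16 (11 of 15) without luteal regression dog 1, and 0.10 and 0.07 without mid-gestation dogs 2 and 4. The second was -0.10 without luteal regression dog 2, 0.31 without luteal regression dog 1, and 0.17, 0.00 and 0.16 without luteolysis dogs 1, 2 and 3. The third was -0.01 without mid-gestation dog 2 and between 0.04 and 0.25 without any other, with 0.24 without luteolysis dog 1. In bulk tissue, fewer dividing cells and less mRNA per dividing cell cannot be told apart.

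**Figure D1:**
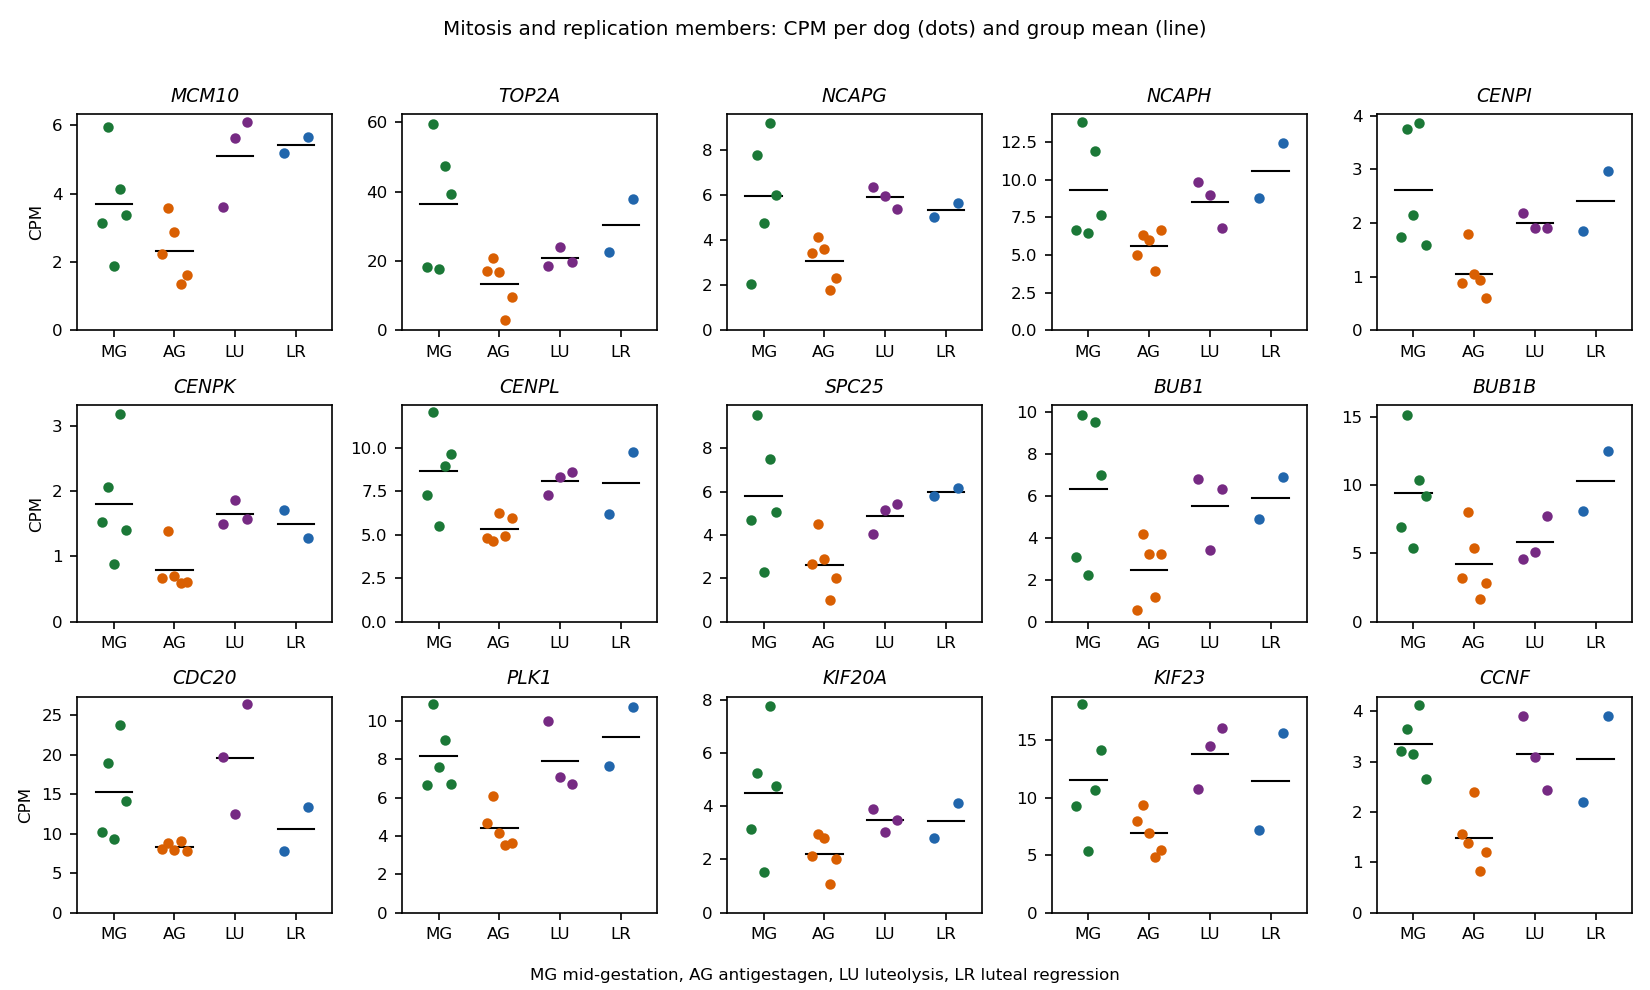
CPM of the 15 mitosis and replication members, 1 panel per gene, with a linear axis from 0. Dots are dogs and lines are group means (5 mid-gestation, 5 antigestagen, 3 luteolysis and 2 luteal regression dogs). The antigestagen mean is the lowest of the 4 in every panel, while single mid-gestation dogs reach down into the antigestagen range in most of them.

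MCM10 (ENSCAFG00000004754) helps load the replication machinery onto licensed origins. It measured 3.15, 5.96, 1.89, 4.12 and 3.38 CPM in mid-gestation dogs 1 to 5 and 2.22, 3.59, 2.88, 1.36 and 1.61 CPM in antigestagen dogs 1 to 5. It measured 3.60, 5.61 and 6.09 CPM in the luteolysis dogs and 5.18 and 5.64 CPM in the luteal regression dogs. The luteolysis and luteal regression dogs all lay above every antigestagen dog, while the mid-gestation dogs overlapped with all the other groups. TOP2A (ENSCAFG00000016090), the topoisomerase that untangles sister chromatids, had the most reads of the 15 members, from 50 to 1157 reads per dog. Its CPM was 18.3, 59.5, 17.7, 47.4 and 39.4 at mid-gestation, 17.0, 21.0, 16.7, 2.96 and 9.69 after antigestagen, 18.5, 24.0 and 19.7 in luteolysis and 22.7 and 38.0 in luteal regression. Mid-gestation dogs 2, 4 and 5 stood above all luteolysis dogs, whereas mid-gestation dogs 1 and 3 lay within the antigestagen range.

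NCAPG (ENSCAFG00000016677) and NCAPH (ENSCAFG00000006560) are subunits of condensin I, which compacts chromosomes for mitosis. NCAPG measured 2.05, 7.81, 4.79, 9.24 and 6.00 CPM at mid-gestation, 3.45, 4.15, 3.62, 1.77 and 2.32 after antigestagen, 6.38, 5.97 and 5.39 in luteolysis and 5.04 and 5.64 in luteal regression. NCAPH measured 6.66, 13.9, 6.50, 11.9 and 7.66 CPM at mid-gestation, 5.00, 6.36, 6.01, 3.96 and 6.66 after antigestagen, 9.83, 9.01 and 6.78 in luteolysis and 8.80 and 12.4 in luteal regression. For both subunits all 5 luteolysis and luteal regression dogs exceeded all antigestagen dogs, and mid-gestation dogs 2 and 4 were above the other mid-gestation dogs.

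CENPI (ENSCAFG00000017593) and CENPK (ENSCAFG00000007392) belong to the constitutive centromere complex on which the kinetochore is built, as does CENPL (ENSCAFG00000014529). CENPI measured 1.73, 3.75, 2.15, 3.86 and 1.58 CPM at mid-gestation, 0.889, 1.79, 1.05, 0.946 and 0.606 after antigestagen, 2.18, 1.90 and 1.91 in luteolysis and 1.86 and 2.98 in luteal regression. CENPK measured 1.52, 2.06, 0.883, 3.18 and 1.40 CPM at mid-gestation, 0.667, 1.38, 0.697, 0.592 and 0.606 after antigestagen, 1.501, 1.86 and 1.56 in luteolysis and 1.71 and 1.28 in luteal regression. Both had as few as 6 reads in a dog, so that the low antigestagen values rest on few reads. CENPL measured 7.29, 12.1, 5.49, 8.98 and 9.63 CPM at mid-gestation, 4.78, 4.61, 6.28, 4.91 and 5.96 after antigestagen, 7.28, 8.34 and 8.64 in luteolysis and 6.21 and 9.75 in luteal regression, and its lowest raw count was 43. Antigestagen dog 2 reached into the mid-gestation and luteal regression ranges for CENPK but not for CENPL.

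SPC25 (ENSCAFG00000011859) is part of the NDC80 complex, which couples the kinetochore to microtubules. It measured 4.67, 9.56, 2.27, 7.52 and 5.07 CPM at mid-gestation, 2.67, 4.51, 2.88, 1.01 and 2.02 after antigestagen, 4.05, 5.14 and 5.45 in luteolysis and 5.82 and 6.16 in luteal regression. Its luteal regression values exceeded all luteolysis values. Of the spindle checkpoint, the kinase BUB1 (ENSCAFG00000007062) measured 3.096, 9.87, 2.21, 9.55 and 7.01 CPM at mid-gestation, 0.556, 4.20, 3.23, 1.18 and 3.23 after antigestagen, 6.83, 3.40 and 6.32 in luteolysis and 4.89 and 6.93 in luteal regression. BUB1B (ENSCAFG00000008877), which encodes the checkpoint protein BUBR1, measured 6.93, 15.2, 5.36, 10.4 and 9.20 CPM at mid-gestation, 3.22, 8.05, 5.36, 1.66 and 2.83 after antigestagen, 4.58, 5.10 and 7.77 in luteolysis and 8.12 and 12.5 in luteal regression. In BUB1 antigestagen dog 1 had 5 reads, and in BUB1B antigestagen dog 2 lay above luteolysis dog 3.

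CDC20 (ENSCAFG00000005259) activates the anaphase-promoting complex once the checkpoint is satisfied. Its CPM was 10.2, 19.0, 9.34, 23.7 and 14.1 at mid-gestation, 8.00, 8.77, 7.89, 9.11 and 7.88 after antigestagen, 19.7, 12.5 and 26.4 in luteolysis and 7.87 and 13.3 in luteal regression. The 5 antigestagen dogs lay in a narrow band below every mid-gestation and luteolysis dog, and luteal regression dog 1 lay at its lower edge. PLK1 (ENSCAFG00000017658), a kinase of mitotic entry and spindle assembly, measured 6.66, 10.9, 7.57, 8.98 and 6.69 CPM at mid-gestation, 4.67, 6.10, 4.14, 3.55 and 3.63 after antigestagen, 9.98, 7.08 and 6.72 in luteolysis and 7.63 and 10.7 in luteal regression. For PLK1 no antigestagen dog overlapped with any dog of the other 3 groups.

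KIF20A (ENSCAFG00000001204) and KIF23 (ENSCAFG00000017535) are the kinesins among the mitosis and replication members and act at the central spindle during cytokinesis. KIF20A measured 3.15, 5.24, 1.51, 7.78 and 4.75 CPM at mid-gestation, 2.11, 2.97, 2.79, 1.06 and 2.02 after antigestagen, 3.90, 3.04 and 3.48 in luteolysis and 2.79 and 4.11 in luteal regression. KIF23 measured 9.29, 18.1, 5.36, 10.7 and 14.1 CPM at mid-gestation, 8.00, 9.33, 6.97, 4.85 and 5.45 after antigestagen, 10.7, 14.5 and 16.1 in luteolysis and 7.24 and 15.7 in luteal regression. Mid-gestation dog 3 had the lowest mid-gestation value of both. CCNF (ENSCAFG00000019372), an F-box cyclin that marks proteins for degradation and binds no CDK, measured 3.20, 3.65, 3.15, 4.12 and 2.66 CPM at mid-gestation, 1.56, 1.38, 2.40, 0.828 and 1.21 after antigestagen, 3.90, 3.08 and 2.44 in luteolysis and 2.20 and 3.90 in luteal regression. All mid-gestation and luteolysis dogs exceeded all antigestagen dogs in CCNF, while luteal regression dog 1 did not.

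Counted over the 15 members, the dogs of both groups did not overlap in 3 members for “mid-gestation over antigestagen”, against 1.24% of all genes tested, in 11 for “luteolysis over antigestagen”, against 7.74%, and in 9 for “luteal regression over antigestagen”, against 29.7%. The first 2 contrasts were used in choosing members and all 3 share the antigestagen dogs, so that these counts describe the members and carry no test. In the contrasts with 2 luteal regression dogs, non-overlap was frequent among all genes. The part that the small number of dogs has in this was not tested. By the log2 ratio relative to its SE, BUB1 and KIF20A stood just inside the listing for “mid-gestation over antigestagen”, with 1.33 (SE 0.50) and 1.03 (SE 0.39), and KIF23 and MCM10 just outside it, with 0.73 (SE 0.31) and 0.65 (SE 0.34).

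The largest log2 ratios of “mid-gestation over antigestagen” were those of TOP2A at 1.43 (SE 0.44), BUB1 at 1.33 (SE 0.50) and CENPI at 1.28 (SE 0.37). The group means behind them were 36.5 ± 18.3 CPM and 13.5 ± 7.14 CPM, mid-gestation first, for TOP2A (mean ± SD, n = 5 each), and 6.35 ± 3.56 and 2.48 ± 1.54 CPM for BUB1. In “luteolysis over antigestagen”, CDC20 had the largest log2 ratio of the 5 members listed there, 1.23 (SE 0.31), but without luteolysis dog 1 it had 1.24 (SE 0.36) and MCM10 1.31 (SE 0.42). CDC20 had group means of 19.5 ± 6.97 CPM (n = 3) and 8.33 ± 0.572 CPM (n = 5). Both contrasts belong to the lists that chose these genes, and their values carry no test.

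Taking the log2 CPM of each of the 15 members minus its mean over all dogs and averaging over the members gives 1 value per dog. It was -0.07, 0.93, -0.34, 0.82 and 0.34 in mid-gestation dogs 1 to 5 and -0.71, -0.10, -0.37, -1.26 and -0.79 in antigestagen dogs 1 to 5. It was 0.28, 0.23 and 0.34 in the luteolysis dogs and 0.11 and 0.59 in the luteal regression dogs. Antigestagen dog 2 thus lay between mid-gestation dogs 1 and 3, while the luteolysis dogs were close together, with an SD of 0.06 against 0.55 at mid-gestation and 0.44 after antigestagen. Mid-gestation dog 2 was the highest of all 15 dogs in 8 members and mid-gestation dog 4 in 5, and antigestagen dog 4 was the lowest in 11. Without antigestagen dog 4 the median log2 ratio for “mid-gestation over antigestagen” was 0.90, and over all dogs left out in turn it lay between 0.85 and 1.20, with 15 of 15 members above 0 each time. For “luteolysis over antigestagen” it lay between 0.78 and 1.08 (15 of 15 each time, 0.89 without luteolysis dog 1), and for “luteal regression over antigestagen” between 0.75, with 14 of 15 above 0 without luteal regression dog 2, and 1.22.

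The library of antigestagen dog 4 was not shallow, with 19272885 reads counted, whereas antigestagen dogs 1 and 5 had the smallest totals, 8558743 and 12032776. Markers of cell types could be paired with identifiers for 13 of 44 genes. The summed CPM of the endothelial markers PECAM1, VWF and TEK (3 of 7) lay between 215 and 534 at mid-gestation and between 377 and 775 after antigestagen, between 365 and 798 in luteolysis and between 231 and 243 in luteal regression, with no single marker below 36.9 CPM in any dog. Antigestagen dog 4, the lowest in the mitosis members, had the highest endothelial sum of its group. The fibroblast markers PDGFRA and COL1A1 (2 of 4) summed to between 688 and 4252 CPM at mid-gestation, 782 and 2524 after antigestagen, 318 and 942 in luteolysis and 896 and 1243 in luteal regression. PDGFRA alone measured 32.2 and 46.4 CPM in antigestagen dogs 4 and 5, which had the lowest mitosis values of all dogs, against 78.4 to 111 CPM in antigestagen dogs 1 to 3 and 82.4 to 132 CPM at mid-gestation. COL1A1 did not follow PDGFRA in antigestagen dog 4, with 1428 CPM there and 735 CPM in antigestagen dog 5. It ranged from 927 to 2419 CPM in antigestagen dogs 1 to 3 and from 605 to 4144 CPM at mid-gestation. FSHR, the single follicle marker identified of 3, measured 1508 and 1944 CPM in these 2 dogs, against 744 to 1325 CPM in antigestagen dogs 1 to 3, 617 to 1139 CPM at mid-gestation, 461 to 836 CPM in luteolysis and 615 and 609 CPM in luteal regression. The lymphocyte markers CD2 and CD3E (2 of 6) summed to between 7.37 and 19.7 CPM at mid-gestation and between 5.23 and 13.0 CPM after antigestagen, between 2.55 and 4.88 CPM in luteolysis and between 5.90 and 6.94 CPM in luteal regression, and no pericyte marker was identified. PRLR, the prolactin receptor and the single luteal marker identified of 8, lay between 67.3 and 145 CPM at mid-gestation and between 121 and 175 CPM after antigestagen. The part of cell composition in the low antigestagen values was not tested. STAR, CYP11A1, LHCGR and the other luteal markers were not paired with an identifier, so that the luteal label was checked by PRLR alone, which was present in every dog.

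Turning to contrasts that the listings did not use, the 13 members listed for “mid-gestation over antigestagen” were tested in “luteal regression over luteolysis”, the change between the non-pregnant and the prepartum CL in decline. In edgeR's quasi-likelihood test 0 of the 13 were DEG, against 5.11% of all genes, and 1 had an unadjusted p-value below 0.05, against 18.8% of all genes. DESeq2 also called 0. Their median log2 ratio was 0.10, with a range from -0.88 to 0.82, beside a median of -0.05 over all genes tested. The largest differences were in CDC20, at 10.6 ± 3.87 CPM in luteal regression (n = 2) and 19.5 ± 6.97 CPM in luteolysis (n = 3), with a log2 ratio of -0.88 (SE 0.40, edgeR adjusted p = 0.252), and in BUB1B, at 10.3 ± 3.08 and 5.82 ± 1.71 CPM, with 0.82 (SE 0.54, edgeR adjusted p = 0.432). CDC20, like CCNF and PLK1, was also listed for “luteolysis over antigestagen”, so that its test here shares the luteolysis dogs with that listing. The dogs of both groups did not overlap in 2 of the 13, BUB1B and SPC25, against 38.1% of all genes. The SEs lay between 0.32 and 0.70, and a missed threshold does not show equal levels.

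For the remaining 11 of these 13 members, the log2 ratios of “luteal regression over luteolysis” were 0.55 for TOP2A, 0.31 for NCAPH, 0.29 for SPC25, 0.28 for CENPI, 0.21 for PLK1, 0.10 for BUB1, -0.01 for KIF20A, -0.02 for CENPL, -0.04 for CCNF, -0.14 for CENPK and -0.15 for NCAPG. Which side of 0 the smaller of these fell on depended on the dogs and the scaling. None of the 13 was a DEG when any 1 luteolysis dog was left out, and without luteolysis dog 1 CDC20 and BUB1B, still the lowest and the highest, showed -0.85 and 0.71. The 5 mitosis and replication members listed for “luteolysis over antigestagen” were likewise tested in “luteal regression over mid-gestation”. For CDC20, PLK1 and CCNF this contrast shares the mid-gestation dogs with their listing for “mid-gestation over antigestagen”. Of the 5, 0 were DEG in edgeR's quasi-likelihood test and 0 had an unadjusted p-value below 0.05. The log2 ratios were 0.55 (SE 0.42, edgeR adjusted p = 0.545) for MCM10, -0.53 (SE 0.37, edgeR adjusted p = 0.503) for CDC20, 0.17 for PLK1, -0.14 for CCNF and -0.01 for KIF23.

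**Figure D2:**
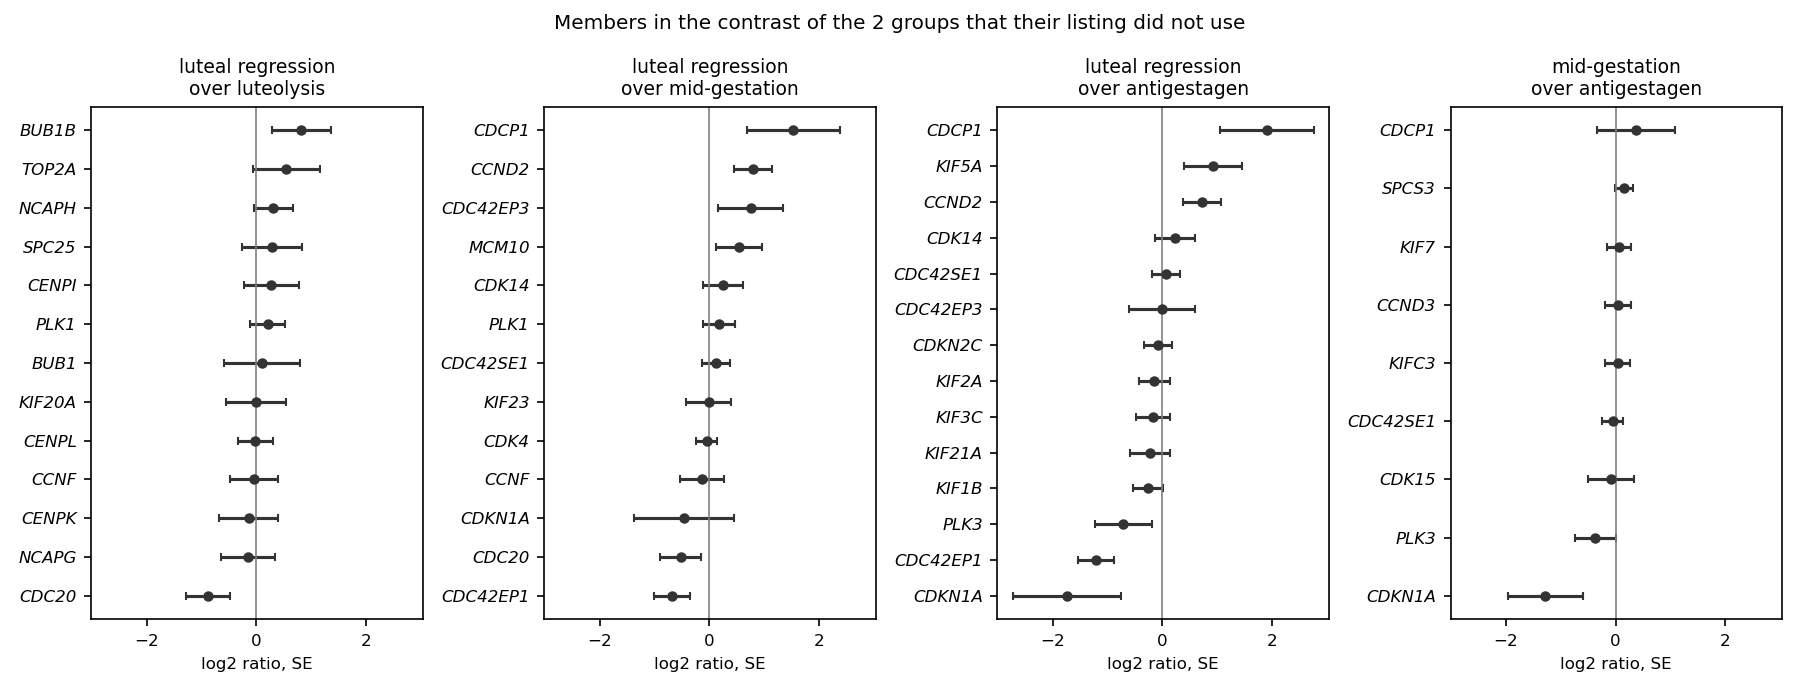
Log2 ratio and SE of the members in the contrast of the 2 groups that their listing did not use, from edgeR with all 15 dogs in the fit: 13 members in “luteal regression over luteolysis”, 13 in “luteal regression over mid-gestation”, 14 in “luteal regression over antigestagen” and 9 in “mid-gestation over antigestagen”. Error bars are 1 SE and the grey line is 0. The mitosis members of the first panel lie around 0, from -0.88 to 0.82, and no point in any panel is a DEG.

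The G1 regulators and the stress-linked kinase PLK3 had their highest or lowest mean in luteolysis or luteal regression. Each of these genes was listed for a contrast with luteolysis, so that the listing favoured such means and nothing is read from this. CCND2 (ENSCAFG00000015381), a D-type cyclin that activates CDK4 and CDK6, measured 38.6, 17.6, 23.0, 19.0 and 34.5 CPM at mid-gestation, 25.6, 31.4, 35.8, 29.0 and 17.7 after antigestagen, 36.9, 89.9 and 58.1 in luteolysis and 40.0 and 52.3 in luteal regression. All luteolysis and luteal regression dogs lay above all antigestagen dogs, and both luteal regression dogs lay above all mid-gestation dogs. CCND2 was listed for “mid-gestation over luteolysis” and “luteolysis over antigestagen”. In its tested contrasts, each of which shares 1 group with its other listing, its log2 ratio was 0.80 for “luteal regression over mid-gestation” (SE 0.35, edgeR adjusted p = 0.341) and 0.72 for “luteal regression over antigestagen” (SE 0.35, edgeR adjusted p = 0.301), neither of them past the threshold.

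CCND3 (ENSCAFG00000001618), another D-type cyclin, measured 52.7, 35.7, 51.2, 52.2 and 49.5 CPM at mid-gestation, 49.5, 28.1, 31.6, 76.7 and 48.0 after antigestagen, 66.2, 73.5 and 54.4 in luteolysis and 14.8 and 17.9 in luteal regression. Both luteal regression dogs lay below every other dog, and the log2 ratio of “luteal regression over luteolysis”, the contrast that listed it, was -1.98 (SE 0.36), and -1.93 without luteolysis dog 1. In “mid-gestation over antigestagen” CCND3 showed 0.05 (SE 0.23, edgeR adjusted p = 0.985). The 2 D-type cyclins thus stood on opposite sides in luteal regression, CCND2 above and CCND3 below the mid-gestation dogs.

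CDK4 (ENSCAFG00000000280), the kinase that D-type cyclins activate, measured 74.9, 87.9, 71.5, 91.2 and 60.3 CPM at mid-gestation, 63.5, 65.1, 61.6, 60.1 and 74.7 after antigestagen, 109, 83.4 and 124 in luteolysis and 72.5 and 76.5 in luteal regression. It was listed for “luteolysis over antigestagen”, in which its log2 ratio was 0.70 (SE 0.16), 0.68 without luteolysis dog 1, and no dog of either group overlapped. In “luteal regression over mid-gestation” it showed -0.05 (SE 0.19, edgeR adjusted p = 0.918). CDKN2C (ENSCAFG00000028905), which encodes the CDK4 and CDK6 inhibitor p18, measured 25.6, 45.2, 36.0, 44.6 and 30.3 CPM at mid-gestation, 23.7, 29.6, 31.1, 34.0 and 47.0 after antigestagen, 24.9, 23.8 and 20.8 in luteolysis and 30.5 and 32.3 in luteal regression. Its luteolysis values were all below its mid-gestation values, the contrast that listed it, and in “luteal regression over antigestagen” it showed -0.07 (SE 0.26, edgeR adjusted p = 0.900).

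**Figure D3:**
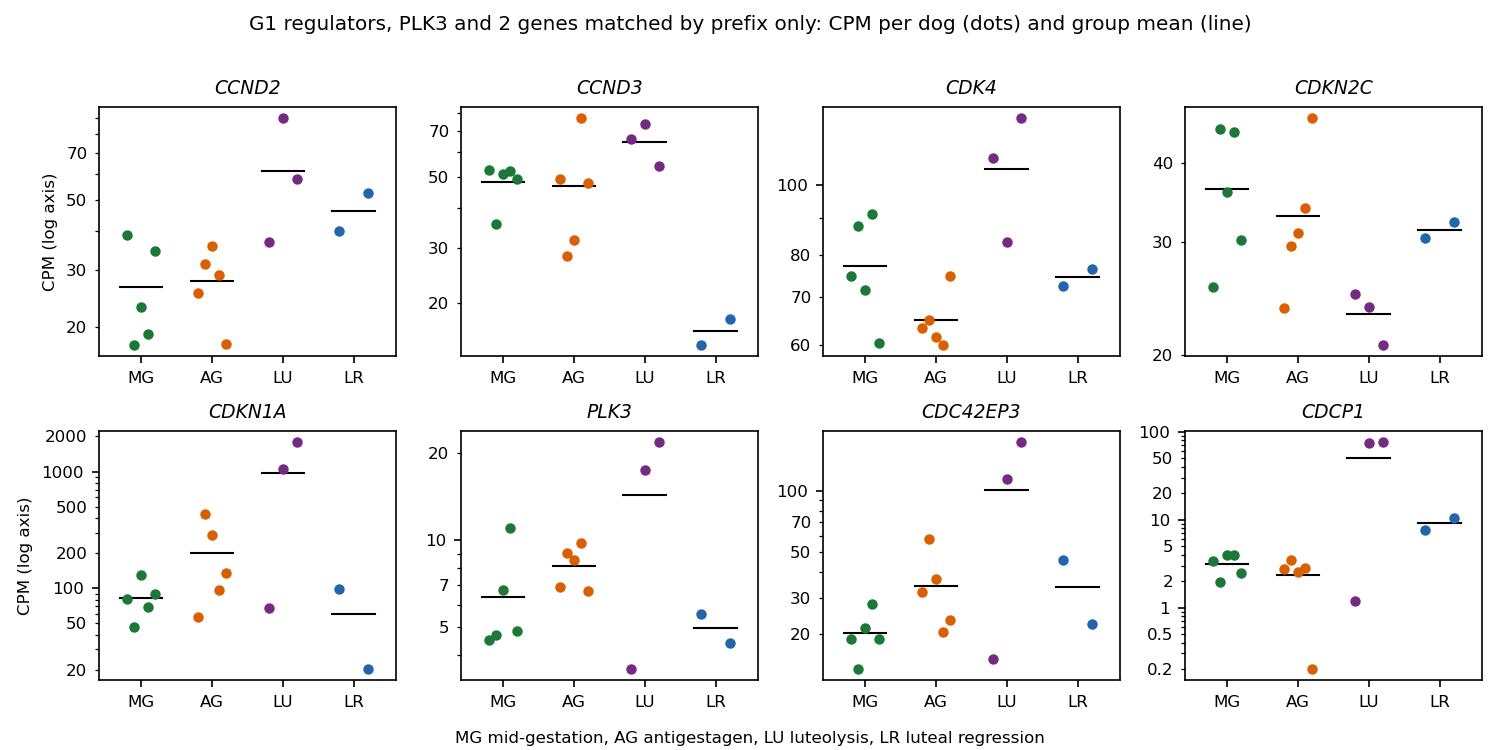
CPM on a log axis of the 6 G1 regulators and stress-linked genes and of CDC42EP3 and CDCP1, with dots for dogs and lines for group means (5 mid-gestation, 5 antigestagen, 3 luteolysis and 2 luteal regression dogs). In CDKN1A, PLK3, CDC42EP3 and CDCP1 luteolysis dog 1 lies far below luteolysis dogs 2 and 3, and in CCND3 both luteal regression dogs lie below all others.

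CDKN1A (ENSCAFG00000029853) encodes the CDK inhibitor p21, which stops the cell cycle after DNA damage and other stress. It measured 80.6, 46.3, 129, 68.6 and 88.7 CPM at mid-gestation, 56.8, 430.3, 286, 96.1 and 135 after antigestagen, 68.0, 1061 and 1779 in luteolysis and 99.3 and 20.5 in luteal regression. Luteolysis dogs 2 and 3 were above every other dog, whereas luteolysis dog 1 lay within the mid-gestation range, and antigestagen dogs 2 and 3 were the next highest. CDKN1A was listed for the 3 contrasts with luteolysis, and its log2 ratio was -4.02 (SE 1.17) in luteal regression and -3.55 (SE 0.79) at mid-gestation, each over luteolysis, while “luteolysis over antigestagen” gave 2.27 (SE 0.77). Without luteolysis dog 1 they were -4.54, -4.12 and 2.82. In the contrasts without luteolysis, each of which shares its groups with 1 or 2 of the listings, “mid-gestation over antigestagen” showed -1.28 (SE 0.69, edgeR adjusted p = 0.766), “luteal regression over antigestagen” -1.75 (SE 0.99, edgeR adjusted p = 0.368) and “luteal regression over mid-gestation” -0.46 (SE 0.92, edgeR adjusted p = 0.8293).

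PLK3 (ENSCAFG00000004713), a polo-like kinase linked to stress responses rather than to mitosis, measured 4.51, 4.73, 6.75, 11.01 and 4.85 CPM at mid-gestation, 6.89, 9.02, 8.54, 9.82 and 6.66 after antigestagen, 3.60, 17.5 and 21.9 in luteolysis and 5.58 and 4.41 in luteal regression. As for CDKN1A, luteolysis dogs 2 and 3 were the highest of all dogs, while luteolysis dog 1 was the lowest. Its log2 ratio for “mid-gestation over luteolysis” was -1.17 (SE 0.42) with and -1.63 (SE 0.31) without luteolysis dog 1. In “mid-gestation over antigestagen” PLK3 showed -0.37 (SE 0.38, edgeR adjusted p = 0.890), and in “luteal regression over antigestagen” it showed -0.72 (SE 0.52, edgeR adjusted p = 0.472).

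The part that cell composition or library quality has in the position of luteolysis dog 1 was not tested. In the summed neutrophil markers S100A9 and CSF3R (2 of 5 identified) luteolysis dog 1 was the lowest of its group, at 2.85 CPM, and luteolysis dog 2 the highest, at 67.3 CPM, against 0.718 to 4.40 CPM in luteal regression, 4.41 to 30.0 CPM at mid-gestation and 15.3 to 35.1 CPM after antigestagen. S100A9 measured 1.73 CPM in luteolysis dog 1 against 18.7 and 19.8 CPM in luteolysis dogs 2 and 3. The macrophage markers AIF1 and ITGAM (2 of 6) summed to 18.9 CPM in luteolysis dog 1, again the lowest of its group, and to 41.9 CPM in luteolysis dog 2, the highest, to between 16.03 and 32.4 CPM at mid-gestation, between 19.0 and 42.1 CPM after antigestagen and between 9.54 and 10.0 CPM in luteal regression. The endothelial marker PECAM1 measured 114 CPM in luteolysis dog 1 against 282 and 288 CPM in luteolysis dogs 2 and 3. The summed lymphocyte markers CD2 and CD3E went the other way, with luteolysis dog 1 the highest of its group at 4.88 CPM. CD2 measured 4.20 CPM there against 1.94 and 2.26 CPM in luteolysis dogs 2 and 3. FSHR was likewise highest in luteolysis dog 1, at 836 CPM against 609 and 461 CPM. For the mitosis members luteolysis dog 1 did not stand apart, its mean centred value of 0.28 lying between those of the other 2 luteolysis dogs.

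The 7 kinesins of other functions are motors of intracellular transport or regulators of microtubules, and 6 of the 7 had their highest mean in luteolysis. All 7 were listed for a contrast with luteolysis, so that the lists helped fix this count and nothing is read from it. KIF1B, which carries mitochondria and vesicles along axons, measured 103, 103, 121, 93.3 and 171 CPM at mid-gestation, 149, 126, 149, 197 and 158 after antigestagen, 141, 262 and 244 in luteolysis and 138 and 120.2 in luteal regression. KIF2A, which shortens microtubules at their ends, measured 32.5 ± 3.76, 42.1 ± 8.69, 67.2 ± 26.5 and 37.9 ± 4.76 CPM in the same order of groups (mean ± SD). KIF3C, a partner of KIF3A in transport, measured 14.2, 6.17, 12.8, 11.7 and 14.6 CPM at mid-gestation, 16.4, 16.9, 18.4, 20.8 and 12.01 after antigestagen, 15.4, 25.5 and 25.4 in luteolysis and 15.9 and 14.1 in luteal regression. In these 3 genes luteolysis dogs 2 and 3 were the highest of all dogs, and luteolysis dog 1 lay within the range of the antigestagen dogs.

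KIF5A, a conventional kinesin best known from neurons, measured 13.7 ± 5.55 CPM at mid-gestation, 16.7 ± 7.63 after antigestagen, 38.2 ± 25.5 in luteolysis and 31.8 ± 11.5 in luteal regression (mean ± SD). KIF21A, which restrains microtubule growth, measured 20.4 ± 6.59, 23.4 ± 7.11, 38.7 ± 12.3 and 20.1 ± 4.63 CPM. KIFC3, a motor that moves towards microtubule minus ends, measured 25.7 ± 3.13, 25.1 ± 4.83, 41.3 ± 19.7 and 18.2 ± 6.25 CPM. KIF7, a regulator of Hedgehog signalling at the cilium, was the exception, with 14.6 ± 2.17, 13.9 ± 3.71, 10.2 ± 3.19 and 24.9 ± 1.21 CPM. Both luteal regression dogs exceeded all other dogs in KIF7, at 25.8 and 24.1 CPM.

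For “mid-gestation over luteolysis”, which listed KIF1B, KIF2A, KIF3C, KIF5A and KIF21A, the log2 ratios were -0.87, -1.05, -0.90, -1.48 and -0.93, and without luteolysis dog 1 they were -1.10, -1.35, -1.11, -1.91 and -1.17. These 5 were tested in “luteal regression over antigestagen”, where none was a DEG. There KIF5A showed 0.92 (SE 0.53, edgeR adjusted p = 0.374), and the other 4 lay between -0.27 and -0.15. KIF7 and KIFC3, listed for “luteal regression over luteolysis” with 1.28 (SE 0.30) and -1.19 (SE 0.35), and 1.23 and -1.42 without luteolysis dog 1, showed 0.06 (SE 0.21) and 0.04 (SE 0.23) for “mid-gestation over antigestagen”, with edgeR adjusted p-values of 0.980 and 0.987.

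**Figure D4:**
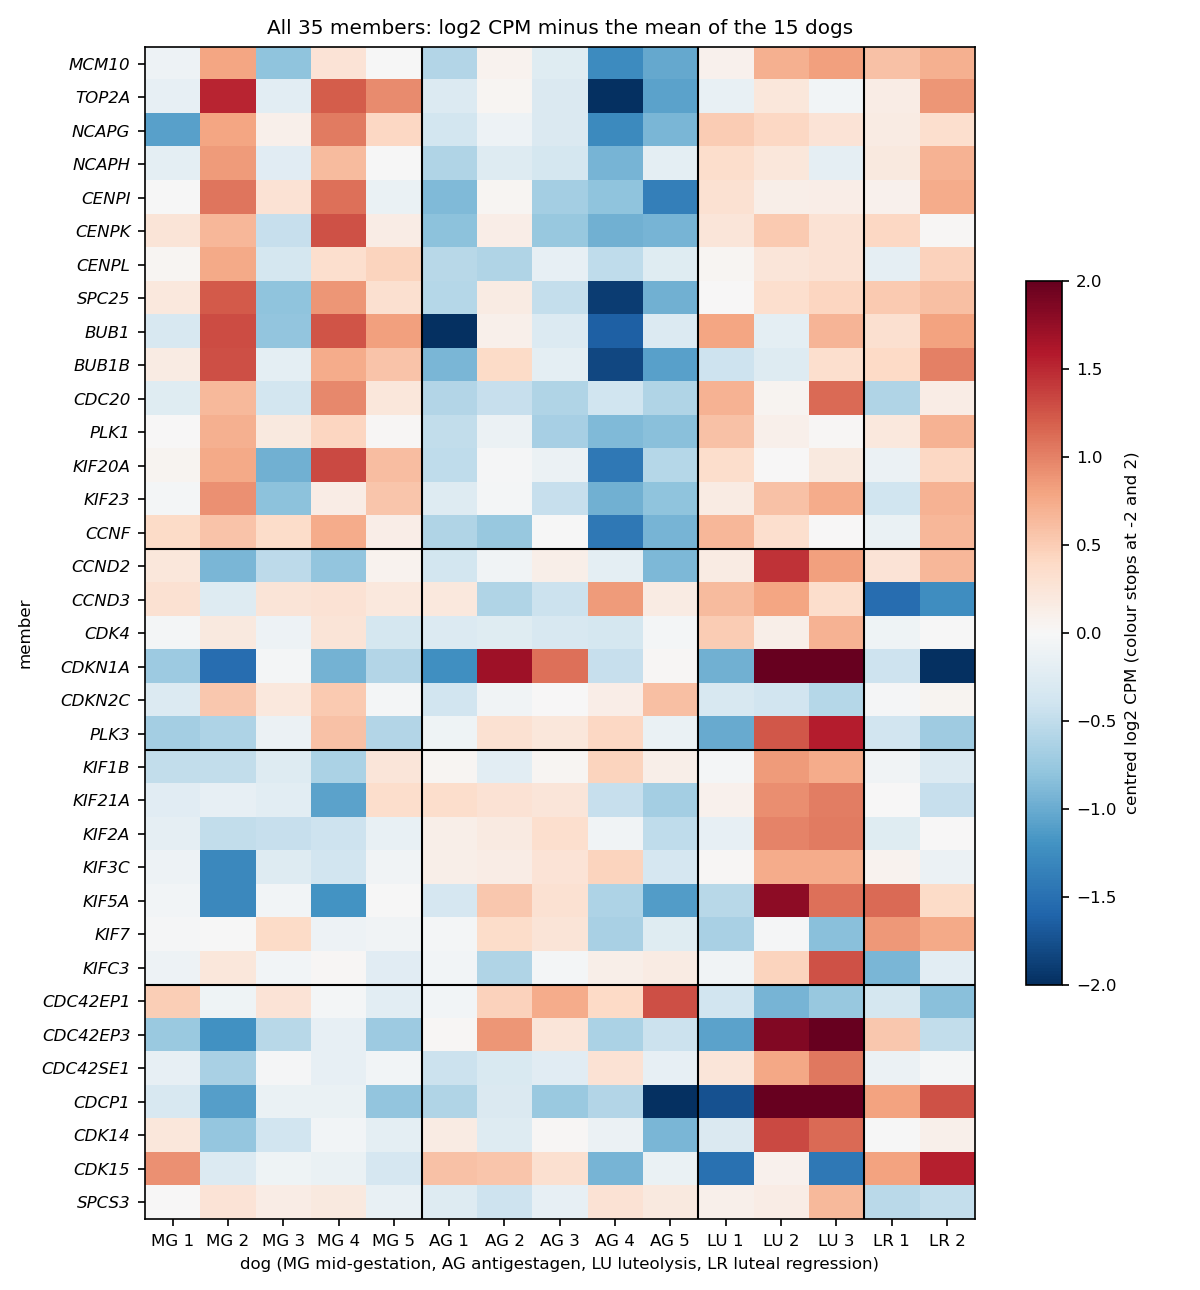
Log2 CPM of all 35 members (rows) in the 15 dogs (columns), minus the mean of each gene over the dogs; red is above and blue below that mean, and the colour stops at -2 and 2. Black lines part the 4 dog groups and the 4 role groups, from top to bottom mitosis and replication, G1 regulators, other kinesins and other genes matched by symbol. The mitosis block is bluest in the antigestagen columns, and in the 3 blocks under it most red lies in luteolysis dogs 2 and 3. The members were chosen by differences that involve these groups, so that nothing is read from this.

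Of the 7 other genes matched by symbol, CDC42EP1 and CDC42EP3 encode effectors of the GTPase CDC42 that act on actin and septins, and CDC42SE1 a small CDC42 effector. CDC42EP1 (ENSCAFG00000001501) measured 24.8, 16.5, 21.3, 17.1 and 15.1 CPM at mid-gestation, 17.0, 24.2, 29.4, 23.2 and 43.4 after antigestagen, 13.5, 9.25 and 10.4 in luteolysis and 13.8 and 9.80 in luteal regression. Both luteal regression dogs lay below all antigestagen and all mid-gestation dogs. In “luteal regression over antigestagen”, which did not list it, CDC42EP1 had a log2 ratio of -1.22 (SE 0.33, unadjusted p = 0.00228, edgeR adjusted p = 0.176), while DESeq2 gave -1.20 (SE 0.33, DESeq2 adjusted p = 0.0205), so that the call depended on the tool. It was listed for “luteolysis over antigestagen” and “mid-gestation over luteolysis”, with -1.31 (SE 0.29) and 0.78 (SE 0.28), and -1.47 and 0.94 without luteolysis dog 1. The contrast “luteal regression over antigestagen” thus shares the antigestagen dogs with the first of these listings, so that their high values had helped choose CDC42EP1. CDC42EP1 was also tested in “luteal regression over mid-gestation”, with -0.68 (SE 0.32, edgeR adjusted p = 0.357). That contrast shares the mid-gestation dogs with the second listing.

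CDC42EP3 measured 18.8, 13.5, 21.4, 27.9 and 18.8 CPM at mid-gestation, 32.0, 58.0, 37.0, 20.2 and 23.2 after antigestagen, 14.9, 114 and 173 in luteolysis and 45.7 and 22.2 in luteal regression. Its log2 ratio for “mid-gestation over luteolysis” was -2.33 (SE 0.52), and -2.85 (SE 0.36) without luteolysis dog 1. CDC42SE1 measured 12.8 ± 2.03 CPM at mid-gestation, 13.2 ± 2.75 after antigestagen, 24.3 ± 6.59 in luteolysis and 13.9 ± 0.580 in luteal regression. In the contrasts without luteolysis, the log2 ratio of CDC42SE1 was -0.05 for “mid-gestation over antigestagen”, 0.12 for “luteal regression over mid-gestation” and 0.07 for “luteal regression over antigestagen”.

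CDCP1 (ENSCAFG00000014040), a transmembrane glycoprotein phosphorylated by Src kinases, ranged most widely of the members on the log scale. It measured 3.41, 1.95, 3.91, 3.92 and 2.44 CPM at mid-gestation, 2.78, 3.49, 2.53, 2.84 and 0.202 after antigestagen, 1.20, 74.6 and 75.9 in luteolysis and 7.58 and 10.5 in luteal regression. The value of antigestagen dog 5, on which the wide range rests in part, came from 2 reads. Both luteal regression dogs lay above all mid-gestation and antigestagen dogs, with log2 ratios of 1.54 for “luteal regression over mid-gestation” (SE 0.86, edgeR adjusted p = 0.410) and 1.90 for “luteal regression over antigestagen” (SE 0.86, edgeR adjusted p = 0.279). With the dogs of mid-gestation and luteal regression alone in the fit, the former was 1.55 (SE 0.33, edgeR adjusted p = 0.0691) and passed the threshold. That fit left out both the luteolysis and the antigestagen dogs, and which of them made the difference was not tested. For “luteolysis over antigestagen”, which listed it, the log2 ratio was 4.39 (SE 0.81), and 4.96 (SE 0.48) without luteolysis dog 1. In “mid-gestation over antigestagen”, where it was also tested, CDCP1 showed 0.37 (SE 0.71, edgeR adjusted p = 0.953). CDCP1 was listed for all contrasts of the study with luteolysis, so that each tested contrast shares its groups with these listings.

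CDK14 and CDK15 belong to the PFTAIRE kinases, of which CDK14 acts in Wnt signalling, and SPCS3 is a subunit of the signal peptidase. CDK14 measured 21.2 ± 5.36 CPM at mid-gestation, 21.5 ± 5.54 after antigestagen, 44.7 ± 21.7 in luteolysis and 25.2 ± 1.46 in luteal regression (mean ± SD). CDK15, with as few as 8 reads in a dog, had 2.04 ± 0.923, 2.15 ± 0.821, 1.08 ± 0.807 and 4.56 ± 1.68 CPM, and SPCS3 had 46.7 ± 5.27, 42.1 ± 8.89, 54.4 ± 12.04 and 30.7 ± 0.941 CPM. Both SPCS3 and CDK15 were listed for “luteal regression over luteolysis”, with -0.82 (SE 0.24) and 2.03 (SE 0.60), and -0.89 and 1.80 without luteolysis dog 1. They were not DEG in “mid-gestation over antigestagen”, with 0.15 (SE 0.16) and -0.08 (SE 0.42).

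Counted by listing, the tests in unused contrasts gave no DEG among the members in edgeR's quasi-likelihood test. Of the 9 members listed for “luteal regression over luteolysis”, 0 were DEG in “mid-gestation over antigestagen” (0 at an unadjusted p below 0.05, smallest adjusted p 0.766), where 0% of all genes were DEG and 6.81% had an unadjusted p below 0.05. Of the 14 listed for “mid-gestation over luteolysis”, 0 were DEG in “luteal regression over antigestagen” (2 at an unadjusted p below 0.05, CDC42EP1 and CDCP1), against 0% and 17.1% of all genes, and DESeq2 called 1. Of the 13 listed for “luteolysis over antigestagen”, 0 were DEG in “luteal regression over mid-gestation” (1 at an unadjusted p below 0.05, CCND2), against 0% and 14.1% of all genes, and DESeq2 called 0. Members on 2 or more lists, CDC42EP1, CDCP1 and CCND2 among them, share a group of the tested contrast with another of their listings. Leaving out mid-gestation dog 1, the dog with the divergent label, left the counts of both contrasts with mid-gestation at 0.

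Among the 14887 other genes of the fit, those whose log2 CPM over the 15 dogs was most like the mean of the mitosis and replication members were, by Pearson's r and among the 10 highest, CCNA2 at 0.955, HJURP at 0.928, DLGAP5 at 0.926, RACGAP1 at 0.923 and ARHGEF39 at 0.913. The other 5 were identifiers without a symbol, led by ENSCAFG00000018724 at 0.936. CCNA2 is the cyclin of S phase and mitotic entry, HJURP loads the centromere histone CENP-A, DLGAP5 stabilises spindle microtubules and RACGAP1 acts with KIF23 in cytokinesis. These r values describe 15 dogs that share 1 scaling and 4 group means, and carry no test. CCNA2 itself measured 2.84 to 11.3 CPM at mid-gestation, 1.83 to 3.90 CPM after antigestagen, 4.23 to 7.43 CPM in luteolysis and 4.01 to 6.52 CPM in luteal regression.

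Of a wider list of 130 cell cycle genes, the members left out, 25 (19.2%) had an identifier, each through a listing of the study. For 19 of the 25 this was the listing for “mid-gestation over antigestagen” (16 were on that list alone), so that their direction there is no independent evidence. With all 15 dogs in the fit, 23 of the 25 had a log2 ratio above 0 for “mid-gestation over antigestagen” (median 0.92), 22 for “luteolysis over antigestagen” (median 0.71) and 13 for “luteal regression over luteolysis” (median 0.02). DEG numbered 0, 3 and 2 in these contrasts in edgeR's quasi-likelihood test (2, 7 and 4 in DESeq2), and 5 for “mid-gestation over luteolysis”. Each gene called by edgeR was on the study's list for the contrast in which it was called, so that these calls are a description and nothing is read from them. RRM2, the small subunit of ribonucleotide reductase, measured 50.9 and 64.8 CPM in luteolysis dogs 2 and 3, but 4.13 CPM in luteolysis dog 1, 0.828 to 3.03 CPM after antigestagen, 2.59 to 6.84 CPM at mid-gestation and 3.47 and 4.77 CPM in luteal regression. RRM2 was thus split among the luteolysis dogs in the way of CDKN1A and CDCP1 rather than of the mitosis members. The other genes so called were CKAP2L and MELK, higher in luteolysis than after antigestagen, CIT, higher in luteal regression than in luteolysis, ASPM and INCENP, higher at mid-gestation than in luteolysis, and CKAP2L and RB1, lower there. CKAP2L was split like RRM2, with 115 and 249 CPM in luteolysis dogs 2 and 3 but 9.61 CPM in luteolysis dog 1. The latter lay within the antigestagen range of 5.265 to 44.1 CPM.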

How the data were processed

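RNA-Seq libraries of whole CL were made from poly-A enriched RNA of 15 dogs and sequenced from a single end. According to the study's methods and the submitters' processing notes, the authors used bcl2fastq 1.8.4 and CASAVA 1.8, aligned the reads to CanFam3.1 with STAR 2.5.1b, and used featureCounts to obtain, for 23630 Ensembl genes, the raw counts that they deposited, neither normalized nor filtered. Deposited counts of at least 10000 (3148 values) are rounded to 4 significant digits. Kit and counting as described give no strand, so that reads of overlapping antisense genes cannot be told apart, and near-identical copies were not checked.

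Groups were read from the labels. The members and lists were chosen with earlier results of these data known. Symbols and identifiers were taken from the study's gene lists, whose fold changes and p-values were not used. Its list for “mid-gestation over antigestagen” held all genes with p below 0.01 in its Wald test, not solely those that also passed the adjusted limit of 0.1. No sequence, promoter or coordinate is given, because the reference at hand belongs to another assembly and carries no Ensembl identifiers. The intended search for promoter motifs was therefore not made.

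In R 4.3.3 with edgeR 4.0.16, the 14922 genes whose count averaged 10 or more in any group were scaled by TMM and fitted over all 15 dogs with the group as single factor. The 6 contrasts were tested (two-sided) by edgeR's quasi-likelihood method on genes reaching that mean count in 1 of the 2 groups, with Benjamini-Hochberg adjustment within the contrast. DEG had p below 0.01 and adjusted p below 0.1. Log2 CPM used a prior count of 2. The scripts were tested on simulated data. Alternatives were DESeq2's size factors, DESeq2 1.42.0 (Wald test), no filter, the 2 groups alone and each dog left out. Every member and the cell cycle list's DEG (up to 3 per direction and contrast by p-value) are named, with per-dog values for mitosis and G1 members, together with the 10 genes most like the mitosis members. Per-dog values of RRM2, CKAP2L, CCNA2 and the other members matched by symbol were added after they had been seen. Each dog is 1 independent animal.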

Additional observations from a re-analysis of the deposited data

Results flagged for a closer look

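In 120 combinations of gene and group with 5 dogs each, 1 dog stood apart from the other 4 by Dixon's gap ratio (95% critical value) in 7, and chance alone gives about 1 in 20. Among the members these were CCND3 in mid-gestation dog 2 (35.66 CPM, the lowest), CENPK in antigestagen dog 2 (1.384 CPM, the highest), KIF7 in mid-gestation dog 3 (18.42 CPM, the highest), CDC42SE1 in mid-gestation dog 2 (9.30 CPM, the lowest) and CDK15 in mid-gestation dog 1 (3.673 CPM, the highest). In the wider cell cycle list they were RRM2 in antigestagen dog 4 (0.8281 CPM, the lowest) and CKAP2L in antigestagen dog 2 (44.14 CPM, the highest). The groups of 3 luteolysis and 2 luteal regression dogs were too small for this check, so that luteolysis dog 1 could not be tested in this way.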

How the results depend on the processing

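No paired analysis was possible because the labels give the dogs no replicate numbers, and no dog is in more than 1 group. In the contrasts not used for listing, the number of DEG among members stayed at 0 with each mid-gestation, antigestagen or luteolysis dog left out. DEG were not counted without a luteal regression dog, because that group would have had 1 dog left. It was 1 of 14 with DESeq2 (CDC42EP1, “luteal regression over antigestagen”) and 1 of 13 with the groups compared alone in the fit (CDCP1, “luteal regression over mid-gestation”).

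The counts in the contrasts used for listing rested on the luteolysis dogs. With dogs left out in turn, all DEG of “luteal regression over luteolysis” ranged from 5 (without luteolysis dog 3) to 1593 (without dog 1), those among members from 0 to 12 and those of the cell cycle list from 0 to 4. For “mid-gestation over luteolysis” these ranges were 112 to 2434, 0 to 14 and 0 to 6, and for “luteolysis over antigestagen” 6 to 2169, 0 to 15 and 0 to 4, the lowest and highest without the same dogs for all DEG and members. Without luteolysis dog 2 the members called were 6, 4 and 3, and without antigestagen dog 5 the last was 4. All DEG of “mid-gestation over antigestagen” ranged from 0 to 8 (8 without antigestagen dog 1, 6 without mid-gestation dog 5) and of “luteal regression over antigestagen” from 0 to 91 (91 without antigestagen dog 1).

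DESeq2's Wald test gave 1567 DEG for “luteal regression over luteolysis” (4 in the list), 87 for “mid-gestation over antigestagen” (2 members, 2 in the list), 1486 for “luteolysis over antigestagen” (12 and 7), 332 for “luteal regression over mid-gestation” (1 member) and 920 for “luteal regression over antigestagen” (4 and 1). With the groups compared alone in the fit, there were 0 DEG (0 members, 0 in the list) for “luteal regression over luteolysis”, 422 (5 and 2) for “mid-gestation over luteolysis”, 3 (0 and 0) for “luteolysis over antigestagen”, 770 (3 members) for “luteal regression over mid-gestation” and 1 for “luteal regression over antigestagen”. With DESeq2's size factors the last contrast had 3 DEG, and without a filter on low counts “luteal regression over luteolysis” had 3 members called. The cause of these shifts was not tested.

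Log2 ratios near 0 changed sign. With DESeq2's size factors and with DESeq2, CENPL was 0.0103 and 0.00881 and KIF20A 0.0212 and 0.0217 for “luteal regression over luteolysis”, KIF23 was 0.00103 and 0.00103 for “luteal regression over mid-gestation”, and CDC42EP3 was 0.00524 and 0.00665 for “luteal regression over antigestagen” (0.0177 with these groups alone). With each dog left out, the log2 ratios of 19 results that were tested or called crossed 0, and those neither tested nor called were not counted. In “luteal regression over luteolysis” they ran from -0.17 to 0.33 for BUB1, -0.51 to 0.31 for CCNF, -0.10 to 0.57 for CENPI, -0.36 to 0.054 for CENPK, -0.38 to 0.27 for CENPL, -0.32 to 0.24 for KIF20A and -0.056 to 0.44 for PLK1. In “mid-gestation over antigestagen” they ran from -0.091 to 0.29 for CCND3, -0.11 to 0.072 for CDC42SE1, -0.40 to 0.042 for CDK15, -0.073 to 0.18 for KIF7 and -0.074 to 0.11 for KIFC3. In “luteal regression over mid-gestation” they ran from -0.61 to 0.21 for CCNF, -0.13 to 0.044 for CDK4, -2.02 to 0.26 for CDKN1A, -0.67 to 0.44 for KIF23 and -0.10 to 0.39 for PLK1. In “luteal regression over antigestagen” they ran from -0.63 to 0.42 for CDC42EP3 and -0.17 to 0.12 for CDKN2C. Other log2 ratios of members kept their sign where they were tested or called. Low counts limited CENPI, CENPK and BUB1, with 5 or 6 reads in the lowest dog, and CDCP1, with 2 reads in antigestagen dog 5. The 2 luteal regression dogs limited every contrast with that group.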
